A study of Mus musculus with 63 samples.

Results

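Newborn mouse keratinocytes that lack the epidermal growth factor receptor (EGFR) and carry the v-rasHa oncogene were compared with and without the EGFR kinase inhibitor erlotinib. The comparison took 9 of the 63 arrays of the series by their labels: 5 of knockout cells with v-rasHa alone (KO ras) and 4 of knockout cells with v-rasHa and erlotinib (KO ras erlotinib). The cells came from the skin of newborn CD-1 mice, whose labelled genotype is a gene knockout that the design text describes as total. Both groups were transduced with v-rasHa by diluted supernatant of Psi-2 producer cells and kept in culture for 4 days. The treated group then received erlotinib (Tarceva) at 1 µM for 2 h, and no vehicle is named for the other group. Each array held 1 culture's RNA against reference RNA pooled from 11 mouse cell lines, so that every level below is a log ratio to that pool, taken as log2. The design text calls the samples biological replicates and says no more on whether they are separate cultures or litters, so the p-values may measure technical spread.

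EGFR is a receptor tyrosine kinase that passes signals from EGF family ligands to the ras, ERK and PI3 kinase pathways. Erlotinib occupies the ATP pocket of its kinase domain. Oncogenic ras acts downstream of the receptor, and in keratinocytes it raises the cells' own output of EGF family ligands, which signal back through EGFR. Cells without functional receptor let an effect of erlotinib be looked for where its intended target is missing, which is the question that the comparison puts. An early ERK response is commonly read from immediate early genes such as Egr1 and Fos, and its feedback from the dual-specificity phosphatases, which remove phosphate from MAP kinases.

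The 9 arrays held 26426 to 28047 values for the 28049 probes of the platform. The experiment numbers in the labels fall into 8 runs, and no source says what a run is. KO ras replicates 1 to 3 are in run 3, replicate 5 in run 5 and replicate 4 in run 6. KO ras erlotinib replicates 1 to 3 are in run 5 and replicate 4 in run 6, and the run 6 pair has the reversed dye order. Pearson correlations were taken over the 25557 probes with a value in all 9 samples. Samples of the same run and different groups had correlations of 0.744 to 0.926 (4 pairs, median 0.862). Samples of the same group in different runs had correlations of 0.474 to 0.776 (10 pairs, median 0.622). Samples were therefore more alike by run than by treatment, and the differences of the genes described first are given over all 9 samples and then within runs 5 and 6. The within-run differences rest on 3 treated samples against 1 control in run 5 and 1 against 1 in run 6, and are values without a test.

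Egfr itself has 2 probes, and no source places either inside or outside the deletion, so they check no genotype label. The first Egfr probe read 2.08 to 2.43 in the 5 KO ras samples and 1.97 to 2.61 in the 4 erlotinib samples (difference 0.18 ± 0.43 SE, limma adjusted p = 0.901). The second read −0.27 to 1.67 and −0.26 to 1.71 (difference 0.17 ± 0.51, limma adjusted p = 0.928). The Egfr values of the 2 groups overlapped for both probes. In v-rasHa cells with EGFR the first probe read 1.90 ± 0.92 (SD, n = 5) and the second 1.23 ± 0.63 (SD, n = 5). The 5 KO ras values of the first probe all lay above that mean, and both probes overlapped between the genotypes.

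Few probes were called between erlotinib and no inhibitor in the knockout cells. Of 27641 probes tested in limma, 15 passed an adjusted p of 0.05 (0.0543%), 13 of them higher (0.047%) and 2 lower (0.00724%) with erlotinib. At an unadjusted p under 0.05 there were 3273 (11.8%). Among 14377 genes taken at 1 probe each, 10 were called (0.0696%), and 281 had samples that did not overlap between the groups (1.95%), 183 higher (1.27%) and 98 lower (0.682%) with erlotinib. Of the called genes, 6 did not overlap, and all 6 were higher: Dusp9, Olfr1514, Aldh1a3, Dock5, Egr1 and Pskh1. The count of 15 rests on single samples. It fell to 0 without KO ras replicate 3, to 1 or 2 without KO ras replicate 1 or 2 or erlotinib replicate 2 or 3, and reached 240 to 396 without KO ras replicate 4 or 5 or erlotinib replicate 4. It was 26 without erlotinib replicate 1. It was 0 with run as a random block and 0 under quantile normalization, in either direction (limma, 1526 and 2718 at an unadjusted p under 0.05).

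Egr1, a zinc finger transcription factor that ERK induces within minutes, rose by 1.43 ± 0.31 (limma adjusted p = 0.0481, 1 probe). The 5 KO ras samples read −1.23, −0.25, −0.94, −0.31 and −0.64, and the 4 erlotinib samples 0.49, 1.48, 1.17 and −0.14. The highest control lay just under the lowest treated sample. The Egr1 difference was 1.68 within run 5 and 0.18 within run 6, so that the separation came from the forward-labelled samples of run 5.

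Dusp9, a cytoplasmic phosphatase that inactivates ERK, rose by 3.75 ± 0.77 (limma adjusted p = 0.0328, n = 4 and 4). KO ras replicates 1 to 3 read 0.43, −0.25 and −0.10, replicate 4 read 3.24 and replicate 5 had no value. The erlotinib samples read 5.69, 4.38, 4.40 and 3.84. The only Dusp9 control from a run shared with treated samples was thus well above the other controls, and the difference in that run was 0.61.

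Aldh1a3 encodes a retinaldehyde dehydrogenase that makes retinoic acid. It rose by 3.08 ± 0.55 (limma adjusted p = 0.0120). Its KO ras samples read 1.04, 0.20, −0.48, 1.34 and 0.29, and its erlotinib samples 4.13, 3.62, 4.40 and 2.16. Every treated sample lay above every control, by 3.76 on average within run 5 and by 0.82 within run 6. Among the 6 genes Aldh1a3 had the largest difference in run 6.

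Dock5, a guanine nucleotide exchange factor for Rac, rose by 2.42 ± 0.50 (limma adjusted p = 0.0328). The erlotinib samples were close together at 2.77, 2.60, 2.88 and 2.73, while the KO ras samples read −0.03, 0.26, 0.50, 2.23 and −1.47. The spread lay in the controls, and the 2 controls in the runs of the treated samples were the highest and the lowest of the 5. The Dock5 difference was accordingly 4.22 within run 5 and 0.50 within run 6.

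Pskh1, a serine kinase of the Golgi and nucleus, rose by 1.26 ± 0.26 (limma adjusted p = 0.0328). Its KO ras samples read −0.83, −0.69, −0.33, −0.06 and −0.18, and its erlotinib samples 1.00, 0.68, 1.34 and 0.36. The differences within runs were 1.19 and 0.41. Olfr1514, an olfactory receptor gene, rose by 3.18 ± 0.59 (limma adjusted p = 0.0183) on 4 controls (−2.13, −0.73, −1.51 and 0.08) and 3 treated samples (3.58, 1.12 and 1.62), with no value in run 6.

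**Figure D1:**
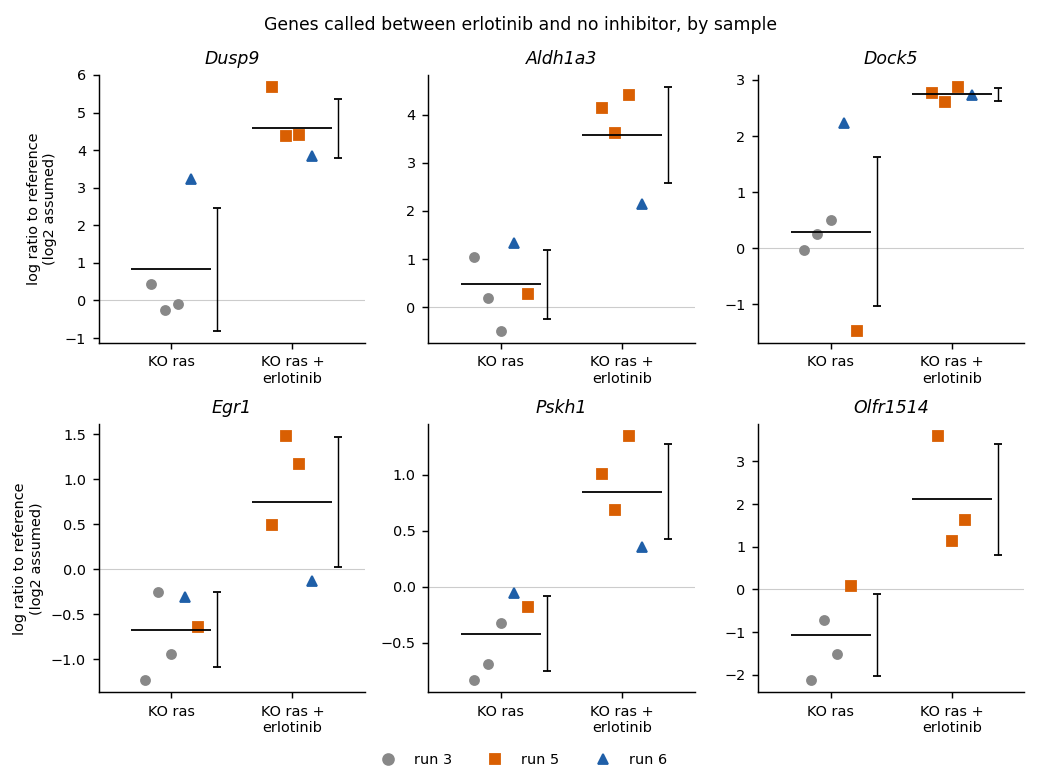
Log ratio to the reference pool (log2 assumed) of the 6 called genes whose samples did not overlap, in 5 KO ras and 4 KO ras erlotinib samples. Points are samples marked by experiment run, lines are group means and bars are 1 SD; the run 6 erlotinib sample (triangle) is the lowest treated sample of Dusp9, Aldh1a3, Egr1 and Pskh1, and Dusp9 and Olfr1514 lack 1 or 2 values.

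Of the other 9 called probes, 2 have no gene name in the annotation used, and the rest overlapped between the groups or were not their gene's chosen probe. The largest called difference was that of an unnamed probe, which rose by 4.02 ± 0.74 (limma adjusted p = 0.012). It read 0.95, 1.26, 1.75, 4.03 and 1.24 in KO ras and 5.20, 6.54, 6.65 and 5.04 with erlotinib, with no overlap, and differed by 4.89 within run 5 and 1.01 within run 6. The second unnamed probe rose by 1.90 ± 0.34 (limma adjusted p = 0.012) and overlapped. H1f2, a linker histone (1.90 ± 0.40, limma adjusted p = 0.0328), and Antxr2, an anthrax toxin receptor that binds basement membrane (1.58 ± 0.33, 0.0328), rose. The H1f2 difference was 2.02 within run 5 and 0.43 within run 6, and that of Antxr2 was 1.32 and 0.54. Olfr603 also rose (2.07 ± 0.43, limma adjusted p = 0.0328), by 0.04 within run 5 and 1.77 within run 6, since its run 5 control, at 1.13, lay within the range of the treated samples. Ctnnd1, the p120 catenin of adherens junctions, rose by 3.10 ± 0.60 on the called probe (limma adjusted p = 0.0183). Its 3 other probes differed by only 0.60, 0.42 and 0.06 (limma adjusted p = 0.597, 0.722 and 0.959), and all overlapped. The Ctnnd1 treated samples read 3.71, 4.22 and 4.32 in run 5 and 1.31 in run 6, where the control read 1.44. Fem1b, a substrate receptor of a ubiquitin ligase, fell by 2.29 ± 0.50 (limma adjusted p = 0.0481), with −1.61, −1.95 and −2.34 in run 5 and −0.24 in run 6 against −0.44 in the control of run 6. One of many probes for Tbp, the TATA-binding protein, fell by 1.81 ± 0.39 (limma adjusted p = 0.0481). Of the 74 others 56 were also negative, and none passed. The called probe read −0.02, 1.02 and 1.14 in the run 3 controls, −1.18 in the run 5 control and −0.87 in that of run 6. Its differences were −0.50 within run 5 and −1.35 within run 6. Olfr75-ps1 rose on 6 values in all (3.17 ± 0.64, limma adjusted p = 0.0328), and a second probe for it was of opposite sign. The controls of the called probe, all of run 3, read −0.87, −0.80 and −0.86. Its treated samples read 5.04 and −0.68 in run 5 and 3.56 in run 6. Run and treatment cannot be told apart for this probe.

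Among the genes that did not pass, those whose samples did not overlap were taken in order of p, 12 of them higher with erlotinib. Noct, a clock-linked phosphatase of nicotinamide cofactors, came closest (1.44 ± 0.32, limma adjusted p = 0.0529), with its other probe of the same sign. The Noct controls read 1.07, 0.04, 0.63, 1.01 and 1.11 and the treated samples 2.24, 2.74, 2.67 and 1.15. Irx3, a homeobox factor (1.74 ± 0.40, limma adjusted p = 0.0617), and Lrrc4, a leucine-rich synaptic membrane protein (1.63 ± 0.38, 0.0629), followed, with differences of 1.52 and 1.46 within run 5 and 0.06 and 0.66 within run 6. E2f1, the transcription factor that drives entry into S phase, differed by 2.09 ± 0.50 (limma adjusted p = 0.0680). Its controls read 0.19, −1.08, 0.63, 1.61 and 0.44 and its treated samples 2.55, 2.87, 2.55 and 2.03. The pseudogene Sprr2j-ps, of the small proline-rich envelope family, had the largest difference of these (4.07 ± 1.08, limma adjusted p = 0.104). Its treated samples of run 5 read 6.05, 6.68 and 6.41, the one of run 6 read 2.56, and the controls read 0.47 to 2.54. The other 7 were Pitx3, Tecta, Zfp280b, Dctpp1, Ugt1a9, Olfr1256 and Cwf19l2, with differences of 1.21 to 2.60 and adjusted p of 0.0680 to 0.0999.

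By the same rule 12 genes were lower, none of them passing. Zfp775, a zinc finger gene, differed by −1.41 ± 0.33 and Ralgps2, an exchange factor for Ral, by −1.25 ± 0.30 (limma adjusted p = 0.0680 for both). Zfp775 differed by −0.84 within run 5 and −2.81 within run 6. Ralgps2 read 0.26, 0.41, 0.12, −0.28 and −0.50 in the controls and −1.60, −1.53, −1.27 and −0.58 in the treated samples. Isl1, a homeobox factor of neurons and Merkel cells, differed by −1.12 ± 0.29 (limma adjusted p = 0.0914), by −0.99 within run 5 and by −1.06 within run 6. Pnrc2, a decapping cofactor, differed by −1.22 ± 0.33 (limma adjusted p = 0.113), by −1.36 and −0.90 within the runs. Isl1 and Pnrc2 were thus lower by similar amounts in both runs, unlike most of the higher genes. The others were Magi3, Ssx9, Zic4, Myod1, Vps45, Ntn1, Oxtr and an immunoglobulin kappa variable segment, with differences of −1.01 to −1.71 and adjusted p of 0.115 to 0.218.

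In run 6, 1 treated and 1 control sample shared a run and a dye order. The 5 called genes with a value there, without Olfr1514, had a median difference of 0.50. Within run 5 the 5 with a value, without Dusp9, had a median of 2.03. The genes with values were all positive in each run. The 12 higher genes that did not pass had medians of 1.58 in run 5 (10 with values) and 0.68 in run 6, and the 12 lower genes −1.27 and −0.52. These directions were fixed by the choice of genes whose samples did not overlap, so a shared sign shows no agreement between runs. Of the 6 called genes, all also had a higher mean in the controls of runs 5 and 6 than in the controls of run 3. The part of run and dye order in these differences was not tested beyond the fits with run as a block.

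**Figure D2:**
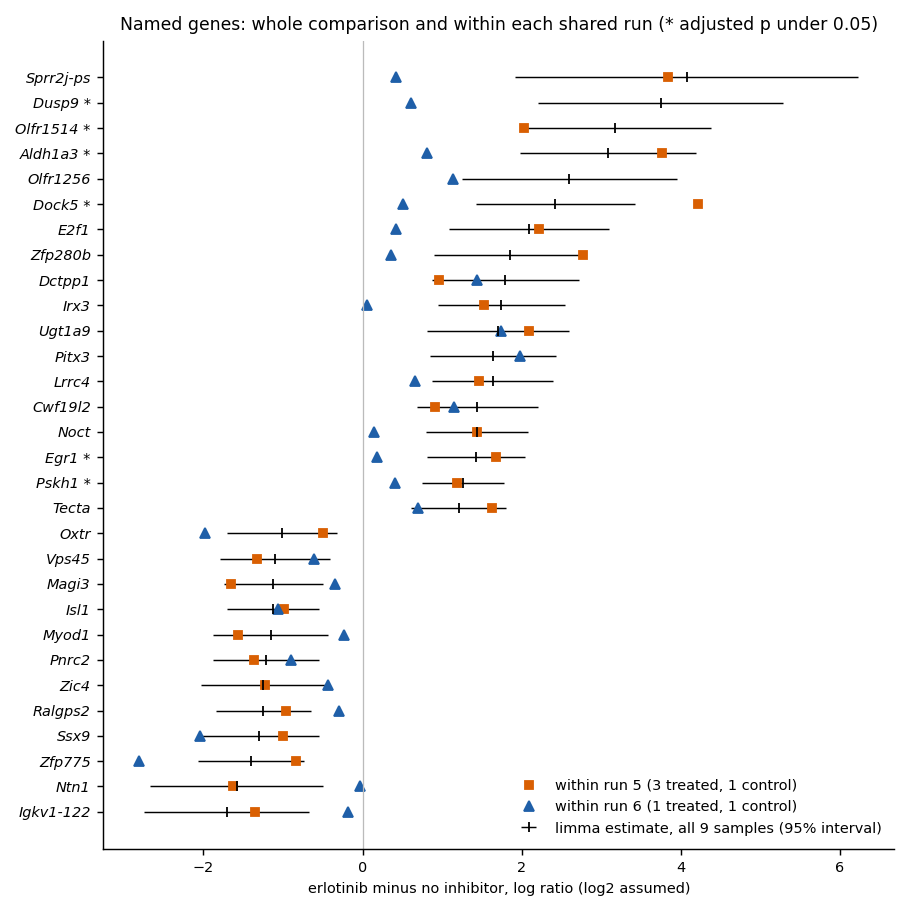
Difference between erlotinib and no inhibitor (log2 assumed) for the 30 genes named by the rule, with the limma estimate over all 9 samples and its 95% interval, the difference within run 5 (squares) and within run 6 (triangles). For the 5 called genes (asterisks) with a value in run 6 the differences of 0.18 to 0.82 lie below the interval of the whole comparison.

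With run as a fixed block, the comparison rests on the 2 controls and 4 treated samples of runs 5 and 6. Erlotinib-treated v-rasHa cells with EGFR, also in runs 5 and 6, helped to set the difference between those runs. Of 27401 probes, 4 were called (0.0146%), 1 higher (0.00365%) and 3 lower (0.0109%). None of them was among the 15. Acta2, smooth muscle actin, rose by 2.37 ± 0.43 (limma adjusted p = 0.0169). Acta2 read 1.20, 2.11 and 1.44 in the controls of run 3, −1.40 in the control of run 5 and −0.32 in that of run 6, and 2.78, 1.37, 1.56 and 0.59 with erlotinib. Its difference over all 9 samples was 0.98 ± 0.44 (adjusted p = 0.369). The treated samples were within the range of the run 3 controls but for the highest and the lowest, and the 2 low values were those of the controls that share the treated samples' runs. Ccn2, a matricellular target of YAP, was also lowest in those 2 controls and came close (2.10 ± 0.43, limma adjusted p = 0.0577). Psmf1 (−2.24 ± 0.46, limma adjusted p = 0.0547) and Olfr1442 (−3.13 ± 0.64, 0.0595) came as close in the other direction. Entpd4 (−3.13 ± 0.56, limma adjusted p = 0.0169) and Zfp128 (−2.23 ± 0.44, 0.0467) fell, and in each case 1 control stood far above the other samples, at 2.51 and 3.70.

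RefSeq promoter windows (GRCm38.p6) ran from 250 bases before to 50 after the start. They were found for 26 of the 37 genes that were called or named by rank above. Aldh1a3, Dock5, Dusp9, Egr1 and Olfr1514 had no window here, so theirs were not searched. On both strands 8 motifs were searched, and 2 windows are shown because one belongs to a gene that rose and the other holds a match to the motif of the Egr1 protein. Capitals mark motif matches, and positions count from the 5′ end of the window.
E2f1: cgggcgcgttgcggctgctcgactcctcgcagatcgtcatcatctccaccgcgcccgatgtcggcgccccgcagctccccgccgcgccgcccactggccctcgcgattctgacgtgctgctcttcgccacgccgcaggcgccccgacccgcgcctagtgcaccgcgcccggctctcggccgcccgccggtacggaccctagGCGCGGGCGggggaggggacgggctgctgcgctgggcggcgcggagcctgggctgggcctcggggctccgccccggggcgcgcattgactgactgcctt
Pskh1: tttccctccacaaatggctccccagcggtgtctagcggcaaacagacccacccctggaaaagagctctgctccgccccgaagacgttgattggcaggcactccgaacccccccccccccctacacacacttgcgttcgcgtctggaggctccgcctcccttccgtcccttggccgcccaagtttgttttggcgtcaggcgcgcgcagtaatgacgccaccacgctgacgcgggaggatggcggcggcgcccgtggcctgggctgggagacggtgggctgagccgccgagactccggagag
The E2f1 window (chr2:154569377-154569676, minus strand) holds the EGR motif GCGNGGGCG at position 202, a motif found in 5.55% of 32851 promoter windows. The Pskh1 window (chr8:105900224-105900523, plus strand) held none of the 8. The AP-1 motif TGANTCA is in 7.81% of windows. The CRE motif TGACGTCA is in 1.79%, and the ETS motif CCGGAAG in 8.86%. The E2F motif TTTCGCGC is in 0.323%. The xenobiotic response motif TNGCGTG is in 5.07%. The TATA box TATAAA is in 13.6% and the CArG box in 1.63%. The EGR motif was also in the windows of Tecta, which was higher, and Magi3, which was lower, so that 3 of the 26 genes held it. The other matches were TATA in Antxr2, Ctnnd1 and Cwf19l2 and the xenobiotic response motif in Ralgps2, and the matched windows of H1f2, Fem1b, Olfr603 and Tbp held none. A match is a run of letters and not a shown binding site. Each window was placed by a RefSeq transcript start, and whether these cells use that start was not tested. The E2f1 match is thus not shown to lie in a promoter active in these cells.

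Of 28 immediate early genes tested, 22 were positive with a median of 0.40, beside a median of 0.01 over all 14377 genes, and Egr1 was the 1 called. Within run 5 the difference was positive for 23 of them, and within run 6 for 12. Fos, the AP-1 subunit, read 0.12, 0.11, 0.36, −1.15 and 0.27 in KO ras and 2.46, 2.75, 2.75 and −1.25 with erlotinib (1.78 ± 0.66, limma adjusted p = 0.253). The 3 treated samples of run 5 stood above every control and the treated sample of run 6 below every control. Egr3 differed by 1.87 ± 0.46 (limma adjusted p = 0.0750) and Nr4a1, an orphan nuclear receptor, by 1.42 ± 0.42 (0.148). Fosl1 (0.86) and Ier3 (0.24) differed less. Myc was lower in every treated sample, at 3.02 to 3.53 against 3.93 to 4.14, and did not pass (−0.80 ± 0.40, limma adjusted p = 0.423). The median of the list was 0.99 within run 5 and −0.06 within run 6.

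ERK feedback genes gave 10 positive of 13 with a median of 0.34 and no call. Dusp4, a nuclear MAP kinase phosphatase, differed by 1.65 ± 0.48 (limma adjusted p = 0.136), with 4.40, 2.10 and 2.18 in run 5 and 0.64 in run 6 against 0.21 to 1.31 in the controls. Dusp6 (0.34), Spry2 (0.17) and Errfi1 (0.52), which damp ERK and EGFR signalling, differed by less than 0.792, the median over all probes of the distance from the estimate to its 95% limit. Among ErbB receptors and ligands, 8 of 11 were positive, the median was 0.18 and none was called. Ereg, which encodes the ligand epiregulin, had non-overlapping samples, at 0.23, 0.01, 1.72, 4.51 and 2.58 in KO ras and 5.07, 7.54, 7.97 and 4.87 with erlotinib (4.52 ± 1.23, limma adjusted p = 0.113). The Ereg control of run 6 read 4.51 beside 4.87 in the treated sample of that run. Hbegf, the heparin-binding ligand, differed by 1.98 ± 0.58 (limma adjusted p = 0.143) and betacellulin, Btc, by 1.72 ± 0.56 (0.188). Erbb2 differed by 0.17. The 3 other kinases on the list of those reported to bind erlotinib differed by 0.05 (Gak), 0.27 (Slk) and −0.38 (Stk10), none passing.

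Genes of the aryl hydrocarbon receptor and drug handling had the highest median of the 36 lists, 0.76, with 10 of 14 positive and none called. Cyp1a1, an oxidase that metabolises erlotinib and is induced by the receptor, read 1.04, 0.73, 0.54, −0.01 and −1.57 in KO ras and 1.39, 5.05, 4.40 and −0.91 with erlotinib (2.37 ± 0.82, limma adjusted p = 0.223). The 2 highest treated samples were both of run 5, and the treated sample of run 6 was below 4 of the controls. Cyp1b1 differed by 2.69 ± 0.84 (limma adjusted p = 0.171). Oxidative stress genes were balanced, with 8 of 15 positive and a median of 0.03. Hmox1 (−0.55), Gclm (−0.10) and Srxn1 (0.03) were near their controls, while the metallothionein Mt2 had non-overlapping samples and did not pass (1.42 ± 0.46, limma adjusted p = 0.189). ATF4 and unfolded protein genes (11 of 14 positive, median 0.33), p53 targets (7 of 14, 0.04) and heat shock genes (3 of 6, −0.0042) held no call.

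Cell cycle genes lay above the median of all genes over the 9 samples and not within run 6. For DNA replication and G1/S genes 17 of 21 were positive (median 0.58, run 5 0.47, run 6 −0.02), and for mitosis genes 17 of 19 (median 0.64, run 5 0.62, run 6 −0.02). Pcna, the replication clamp, read 0.44, −0.57, −0.49, 0.43 and 1.53 in KO ras and 2.49, 1.60, 2.08 and 0.49 with erlotinib (1.39 ± 0.39, limma adjusted p = 0.116). E2f1, given above, and Mcm5 and Aurkb had samples that did not overlap. No gene of either list was called. Sterol and fatty acid synthesis genes were positive in 18 of 20, with a median of 0.37 and values of 0.50 for Hmgcs1 and 0.39 for Sqle, both short of the test.

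Cytokines and chemokines were positive in 20 of 23 (median 0.70, run 5 0.60, run 6 −0.06) with no call. Ccl20, a chemokine for CCR6-bearing lymphocytes and dendritic cells, read 2.07, 1.01, 1.80, 3.82 and 1.69 in KO ras and 3.83, 6.08, 6.83 and 2.94 with erlotinib (2.83 ± 0.79, limma adjusted p = 0.116). Cxcl2, a neutrophil chemokine, differed by 1.45 ± 0.40 (0.113). Matrix proteases were positive in 11 of 14 (median 0.62), among them Mmp13 (2.09 ± 0.72, limma adjusted p = 0.218) and Mmp10 (2.48 ± 0.77, 0.173). In run 6 both were lower in the treated sample, by 1.18 and 0.54. F3, tissue factor, had samples that did not overlap (2.31 ± 0.66, limma adjusted p = 0.134).

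Stress keratins were mostly lower with erlotinib over the 9 samples, with 1 of 8 positive and a median of −0.62, and none was called: Krt6a −0.65, Krt16 −0.54 and Krt17 −1.38. Their median was 0.31 within run 5 and −0.25 within run 6, and the controls of runs 5 and 6 lay below those of run 3 by a median of 1.63. Interferon response genes (7 of 14 positive, median −0.05), Wnt genes (7 of 13, 0.01), Notch genes (9 of 13, 0.26) and ribosomal protein genes (8 of 13, 0.02) held no call. Over the 462 genes of all 36 lists, 1 was called, Egr1, and 15 had samples that did not overlap (3.25%, beside 1.95% of all genes), 10 higher and 5 lower. The lists were written with earlier results of these data known, and their counts are descriptions.

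**Figure D3:**
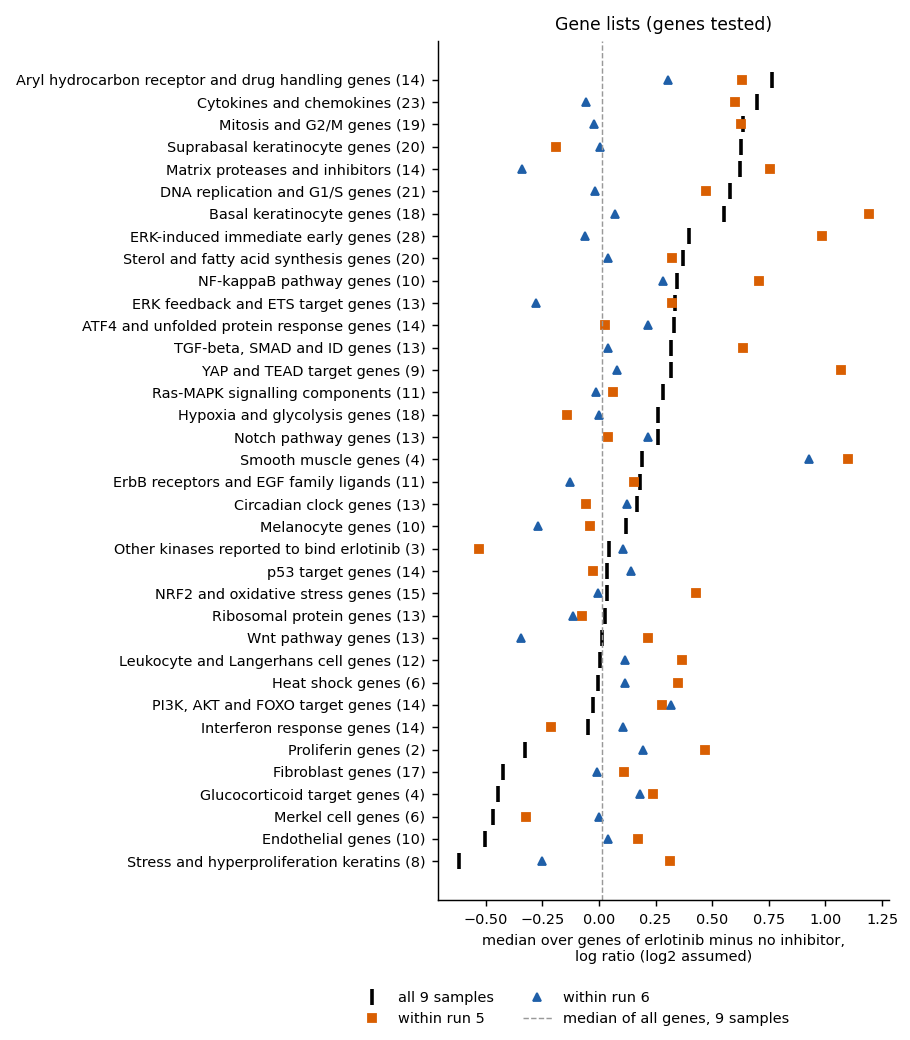
Median over the tested genes of each list of the difference between erlotinib and no inhibitor (log2 assumed), over all 9 samples (ticks), within run 5 (squares) and within run 6 (triangles); the number of genes tested is in brackets and the dashed line is the median of all genes. Of the 36 medians, 27 are above 0 over 9 samples, 27 in run 5 and 22 in run 6, where most lie near 0.

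The labelled cell type was checked on its markers. Over the 18 basal keratinocyte genes the sample medians were 3.14 to 3.80 in KO ras and 3.69 to 4.36 with erlotinib, above the pooled cell lines in all 9 samples. Krt14 read 3.08 to 6.91 in KO ras and 3.72 to 5.31 with erlotinib. Over 20 suprabasal genes the medians were 1.70 to 4.18 and 3.44 to 4.26. Basal genes were positive in 14 of 18 (median difference 0.55) and suprabasal genes in 15 of 20 (0.63), none called. In the suprabasal list the median was −0.19 within run 5, and the controls of runs 5 and 6 exceeded those of run 3 by a median of 1.74. Bnc1, basonuclin 1, a zinc finger factor of basal keratinocytes, read 2.33, 0.34, 1.34, 3.66 and −0.18 in KO ras and 5.94, 5.66, 6.07 and 3.66 with erlotinib (3.83 ± 0.96, limma adjusted p = 0.0858). In run 6 the treated sample and the control had the same Bnc1 value within 0.01.

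No marker gene of another skin cell type was called. Over the 17 fibroblast genes the sample medians were −1.54 to 0.02 in KO ras and −1.62 to −0.76 with erlotinib, while Vim, the filament protein vimentin, read above the pool in all 9 samples. Of the 17 differences 2 were positive over the 9 samples (median −0.42), 10 within run 5 (median 0.11) and 8 within run 6 (median −0.009), and the controls of runs 5 and 6 lay below those of run 3 by a median difference of −0.72. Col3a1, a fibrillar collagen, was lower in all treated samples and did not pass (−1.82 ± 0.65, limma adjusted p = 0.237), and its difference was −1.29 within run 5 and −0.41 within run 6. The sample medians of 12 leukocyte and Langerhans cell genes were −1.93 to −0.44 and −1.76 to −0.91, those of 10 endothelial genes −3.02 to −0.09 and −2.88 to −1.14, those of 4 smooth muscle genes −2.62 to −0.35 and −2.03 to −0.57, and those of 6 Merkel cell genes −0.12 to 0.86 and −0.58 to 0.36. Melanocyte genes lay above the pool, at 0.98 to 1.77 and 1.19 to 1.75, and Dct, a melanin synthesis enzyme, read 2.26 to 6.04 in KO ras and 4.88 to 6.61 with erlotinib (1.84 ± 0.74, limma adjusted p = 0.310). A ratio to pooled cell lines cannot place any of these near absence, and fewer cells of a type cannot be told apart from less RNA per cell. Of 27 retroviral gag probes, 21 were positive (median 0.38) and none was called. Within run 5, 22 were positive (median 0.43), and within run 6, 12 (median −0.11). Whether these probes read the transducing virus was not tested.

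The response was set against that of v-rasHa cells with EGFR (WT ras, 5 samples, and WT ras erlotinib, 5 samples, same strain, dose and time). The interaction was called for 18 of 27565 probes (0.0653%), 9 higher (0.0327%) and 9 lower (0.0327%) in the knockout, with 4 and 9 under quantile normalization. The WT ras samples share no run with their treated samples, so run and treatment cannot be told apart there. Run as a random block left 2 calls. The count was 2 without WT ras replicate 5, 13 to 23 without WT ras replicate 1, 2 or 3 or WT ras erlotinib replicate 2 or 4, and 32 to 43 without KO ras replicate 4 or 5, KO ras erlotinib replicate 4 or WT ras erlotinib replicate 5. Each of the other samples left out gave 4 to 9.

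Egr1 differed most firmly between genotypes (interaction 4.21 ± 0.43, limma adjusted p = 2.48e-09). In WT ras it read 2.10 to 3.30 (median 2.75) without and −0.89 to 0.53 (median −0.08) with erlotinib, a fall of 2.78. In the knockout it rose by 1.43 from −0.67 ± 0.42 (SD, n = 5) to 0.75 ± 0.72 (SD, n = 4). The treated groups of the 2 genotypes overlapped, and the untreated groups lay more than 2 log2 units apart. Il24, a cytokine of the IL-10 family, had a larger and less certain interaction (5.39 ± 1.18, limma adjusted p = 0.0472). It averaged 5.12 and 1.91 in WT ras without and with erlotinib, and 2.06 and 4.20 in the knockout, where the difference did not pass (2.17 ± 0.86, adjusted p = 0.295).

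Samsn1, an SH3 and SAM domain adaptor of lymphocytes, had an interaction of 3.61 ± 0.72 (limma adjusted p = 0.0189), Olfr1514 of 4.18 ± 0.84 (0.0267) and Zfp709 of 2.52 ± 0.54 (0.0472). The Samsn1 difference within the knockout was 2.30 ± 0.52 (adjusted p = 0.0592), and that of Zfp709 0.51. In the other direction were Morn3 (−6.01 ± 1.23, limma adjusted p = 0.0267), Keap1, the adaptor that marks NRF2 for degradation (−2.99 ± 0.59, 0.0189), and Pdhx, a pyruvate dehydrogenase subunit (−2.91 ± 0.56, 0.0189). Ecm1, an extracellular matrix protein (−2.73 ± 0.57, 0.0322), and Coq9, of ubiquinone synthesis (−2.67 ± 0.59, 0.0472), completed the 5 largest. All 5 differed by 1.85 or more upward in WT ras and by −1.09 to 0.34 in the knockout, where none was called.

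Erlotinib called 950 of 27873 probes in WT ras (3.41%). Aldh1a3 rose by 2.48 there (limma adjusted p = 0.00420) and by 3.08 in the knockout, an interaction of 0.60 (95% interval −0.92 to 2.12, adjusted p = 0.780). Dusp9 differed by 1.76 in WT ras (adjusted p = 0.143; interaction 1.99, 95% interval −0.07 to 4.06). In mock-treated WT cells without v-rasHa, erlotinib called 0 of 27910 probes (limma, 885 at an unadjusted p under 0.05), and the estimates were −0.54 for Aldh1a3, −1.80 for Dusp9 and −0.01 for Egr1.

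AG1478 and PD153035 are EGFR inhibitors of the same anilinoquinazoline family, given to knockout v-rasHa cells at the same dose and time (6 and 5 samples, all in run 8). Erlotinib bears an ethynyl group on the aniline ring and methoxyethoxy chains on the quinazoline, where AG1478 carries chlorine, PD153035 carries bromine, and both carry methoxy groups. In 2 pairs compared, erlotinib differed from AG1478 in 67 of 27601 probes (0.243%), 60 higher (0.217%) and 7 lower (0.0254%), and from PD153035 in 1608 of 27611 (5.82%), 959 higher (3.47%) and 649 lower (2.35%). Adjusted over both pairs together, 275 and 1104 probes were called (2.5% of 55212). No run holds both erlotinib and either of the others, so run and compound cannot be told apart. With run as a random block the counts were 0 and 8. The sign of AG1478 replicates 3 and 4 disagreed with their labels, and without both the count against AG1478 was 5. Under quantile normalization it was 3, all higher. It was 192 without erlotinib replicate 4, 2 to 25 without any other 1 sample but AG1478 replicate 6, and 65 without that. Against PD153035 the count was 583 without erlotinib replicate 3, 888 to 993 without erlotinib replicate 1 or 2 or PD153035 replicate 1, 2 or 3, and up to 2029 otherwise.

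Bnc1 differed most from both. It read 3.66 to 6.07 with erlotinib, −1.16 to 0.84 with AG1478 and −1.25 to −0.31 with PD153035, so that the treated groups did not overlap (erlotinib minus AG1478 5.40 ± 0.93, limma adjusted p = 0.00898; minus PD153035 6.22 ± 0.96, adjusted p = 9.49e-05). The untreated samples, at −0.18 to 3.66, overlapped the lowest erlotinib sample and the AG1478 samples. Ccl20 was also higher than with both (3.22 ± 0.76, limma adjusted p = 0.0430, and 4.05 ± 0.79, 0.00104). Il15ra, the IL-15 receptor alpha chain (3.91 ± 0.90, limma adjusted p = 0.0406), Mmp13 (3.31 ± 0.69, 0.0349) and Tnfrsf11b, the decoy receptor osteoprotegerin (2.57 ± 0.56, 0.0350), were higher than with AG1478. Il15ra was also higher than with PD153035 (3.94 ± 0.90, limma adjusted p = 0.00503), as were Il24 (4.55 ± 0.86, 0.000777) and Cd200, an immune inhibitory ligand (3.89 ± 0.64, 0.000144). None of these genes was called between erlotinib and no inhibitor. Without inhibitor, Il15ra read 4.18 in the run 5 control, 4.76 in the run 6 control and −1.57 to 0.72 in the run 3 controls. Its erlotinib samples read 1.34 to 4.92, its AG1478 samples −0.54 to 0.37 and its PD153035 samples −0.50 to 0.34. The untreated samples of runs 5 and 6 thus lay within the erlotinib range. Whether run set the Il15ra differences was not tested.

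Xist, the RNA of the inactive X chromosome, was lower with erlotinib than with AG1478 (−2.12 ± 0.50, limma adjusted p = 0.0430) and PD153035 (−3.32 ± 0.52, 0.000101). It spread widely within groups, at −1.74 to 0.95 in KO ras and −2.61 to 0.71 with erlotinib, against −0.19 to 1.05 and 1.39 to 1.91 with the others. The labels give no sex of the pups. Chl1 (−1.78 ± 0.41, limma adjusted p = 0.0416), Brd8dc (−1.51 ± 0.36, 0.0482) and Olfr655 (−1.36 ± 0.31, 0.0406) were lower than with AG1478. Tex33 (−4.60 ± 1.04, limma adjusted p = 0.00470), Hils1, a spermatid histone (−3.95 ± 0.99, 0.0106), Trim66 (−3.31 ± 0.69, 0.00249) and Sult1d1, a sulfotransferase (−3.20 ± 0.96, 0.0346), were lower than with PD153035.

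For the genes called against no inhibitor, the compounds were set side by side. Aldh1a3 was 3.58 ± 1.00 (SD, n = 4) with erlotinib, 3.17 ± 0.50 (SD, n = 6) with AG1478 and 1.06 ± 0.37 (SD, n = 5) with PD153035. Erlotinib minus AG1478 was 0.38 (95% interval −0.68 to 1.45, limma adjusted p = 0.822) and erlotinib minus PD153035 was 2.50 (adjusted p = 0.00383). Pskh1 was higher with erlotinib than with AG1478 by 1.32 (limma adjusted p = 0.0131) and than with PD153035 by 0.80 (0.0491). Egr1 was higher by 0.81 (limma adjusted p = 0.242) and 1.04 (0.0332), Dock5 by 1.78 (0.0943) and 1.51 (0.0579) and Dusp9 by 1.82 (0.287) and 1.97 (0.0939). Against no inhibitor, which all 3 share as the control, AG1478 called 64 probes (0.229%) and PD153035 1353 (4.84%). Aldh1a3 was among those of AG1478 (2.70, limma adjusted p = 0.0129), and Egr1 differed by 0.62 and 0.39 with AG1478 and PD153035 (adjusted p = 0.295 and 0.450).

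**Figure D4:**
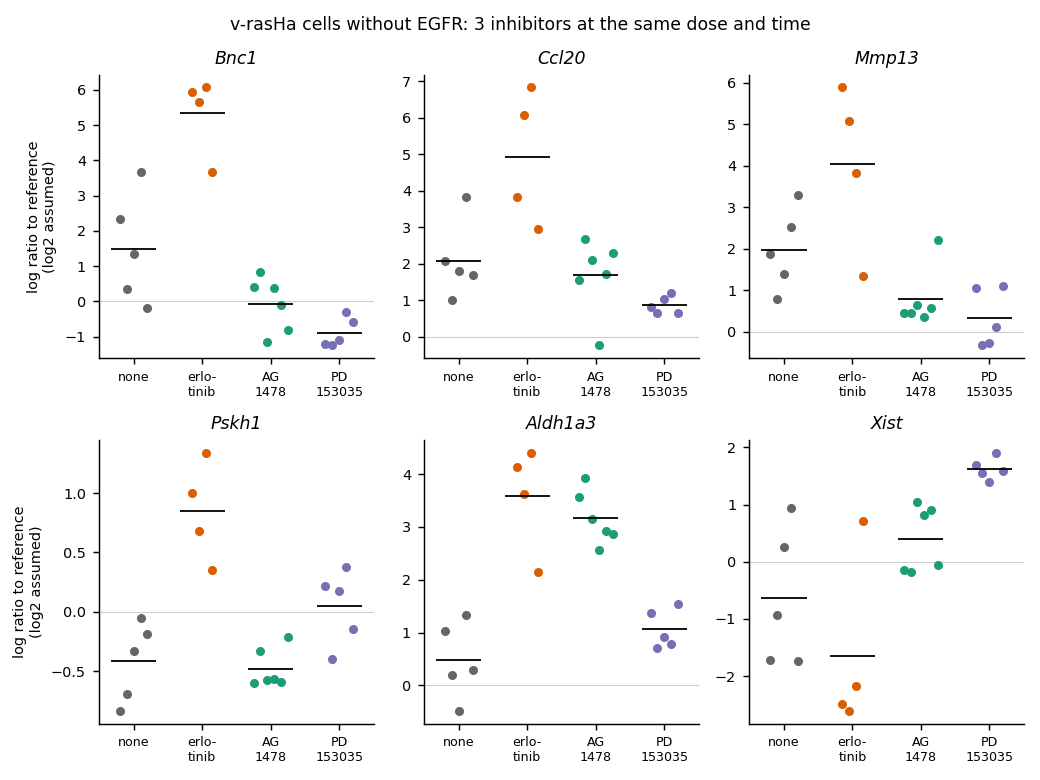
Log ratio to the reference pool (log2 assumed) of 6 genes in v-rasHa cells without EGFR, with no inhibitor, erlotinib, AG1478 or PD153035. Points are samples (4 to 6 a group) and lines are means; Bnc1 lies at 3.66 to 6.07 with erlotinib and at 0.84 or less with both others, while Aldh1a3 overlaps between erlotinib and AG1478.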

How the data were processed

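The authors deposited 1 table of dye ratios on a log scale, taken here as log2 from their spread and, as deposited, centred near 0 (medians −0.072 to 0.067 on the 9 arrays). The log base and the normalization steps are not given in the labels. Per the labels' protocols, Trizol RNA took Cy3 or Cy5 by indirect labelling and was hybridised with the pooled reference in the other dye. The sign of each array was set so that it correlated positively with the median profile of forward-labelled arrays. This gave the labelled dye order on all 9. It did not on 2 arrays of the series, repeats 3 and 4 of KO ras AG1478. Of 28049 probes, 20925 had 1 gene symbol in the platform annotation, 159 several and 6965 none.

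limma 3.58.1 (in R 4.3.3) was fitted to all 13 groups at once (62 samples, a double WT mock array averaged), with dye order as a covariate and eBayes. P-values were adjusted by Benjamini-Hochberg within each comparison. A probe needed values in 60 percent of the samples of every group compared. Runs part where experiment numbers jump by over 100. On simulated data, 10 percent of log2 changes of 1 and 77 percent of those of 2 were recovered in the main comparison, with 2.25 percent of calls false. The simulated data held no differences between runs, so these shares need not hold for the real samples. The number of arrays limits the precision, and the median distance from an estimate to its 95% limit was 0.792.

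Named genes were chosen by rule: called genes whose samples did not overlap, up to 15 in each direction, then the 12 of smallest p in each direction, the leading genes of each list, and the 5 largest called differences in each direction of the other comparisons. Clone and locus codes were skipped. Other genes were named after their values were seen: called genes outside the rule, genes called or nearly called with run as a block, Egr3, Nr4a1, Myc, Ereg, Btc, Mt2, Mcm5, Aurkb, Ccl20, Mmp10, F3 and Bnc1 of the lists. The members and the 36 lists were chosen with earlier results of these data known. Alternatives were no dye term, forward arrays only, median centring, quantile normalization, other filters, the groups compared alone, averaging by gene, run and replicate blocks, array weights and each sample left out.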

Additional observations from a re-analysis of the deposited data

Results flagged for a closer look

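Of 71 groups of 4 or 5 samples examined among the named genes, 3 held a sample far from the rest, where chance alone gives about 1 in 20. Sprr2j-ps read 2.56 in KO ras erlotinib replicate 4, below the other treated samples. Zic4 read 0.86 in the same sample, above the others. Olfr603 read 1.13 in KO ras replicate 5, above the other controls.

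The interaction between erlotinib and genotype passed the test in the genes named for that comparison. The WT ras samples share no run with their treated samples, so run and treatment cannot be told apart there, and run as a random block left 2 of the 18 calls. The knockout response exceeded the wild-type response by 5.39 for Il24, 4.21 for Egr1, 4.18 for Olfr1514, 3.61 for Samsn1 and 2.52 for Zfp709. It was lower by differences of −6.01 for Morn3, −2.99 for Keap1, −2.91 for Pdhx, −2.73 for Ecm1 and −2.67 for Coq9.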

How the results depend on the processing

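For erlotinib in KO ras, where the count of called probes was 15, it was 234 on forward arrays only, 5507 with array weights and 4 with run as a fixed block, none of them shared with the 15. It was 0 under quantile normalization (limma, 2718 at an unadjusted p under 0.05), 0 with only the groups compared (2910), 0 with run as a random block (1526), 0 with only the samples of runs 5 and 6 (1359) and 0 with a replicate block (5231). Samples left out gave 0 (2294 unadjusted) to 396. For the interaction (18), the moved counts were 42 on forward arrays only, 1 with only the groups compared, 11 with probes averaged by gene, 2 with run as a random block, 9 with a replicate block and 1518 with array weights, and samples left out gave 2 to 43. For erlotinib minus AG1478 (67) they were 5 without the dye term, 3 under quantile normalization, 38 for probes with a value in every sample, 0 with run as a random block (634 unadjusted), 1 with a replicate block, 5 without the 2 disputed arrays and 2019 with array weights, and samples left out gave 2 to 192. For erlotinib minus PD153035 (1608) they were 904 under quantile normalization, 8 with run as a random block, 509 with a replicate block and 7073 with array weights, and samples left out gave 583 to 2029. The cause of these changes was not tested.

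Replicate numbers did not pair the samples: the deviations of same-numbered samples correlated at 0.41, −0.03, 0.01 and 0.62, and controls 2 and 3 correlated best with treated replicate 1. Every called gene of the main comparison kept its direction in all settings that gave it a value. Egr1 passed in 11 of 23 settings, with differences of 1.06 to 1.92, and Aldh1a3 in 14 of 23, with 2.55 to 3.79. With run as a random block their adjusted p were 0.433 and 0.0761.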
